A study of Mus musculus with 28 samples.

Results

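The cornified envelope and late differentiation genes described here are 40 mouse genes of the upper epidermis, taken as a list of symbols and not by their measured values. All 40 were found among the 47729 gene IDs of the count files, and 36 had enough reads to be tested with the 17299 genes of the fit. Crnn, Lce3a, Lce3b and Lce3e stayed below that filter, with at most 0.58 CPM (the usual measure of a gene's count scaled by all counts of its library) in any library. By role the list holds 22 structural proteins of the envelope (Lor, Ivl, Kprp, 12 genes of the Lce1 group, 6 of the Lce3 group and Lce6a), 6 proteins of the filaggrin and fused S100 family, 3 enzymes that crosslink or process envelope proteins, 5 secreted or junction proteins of the upper epidermis, 3 lipid enzymes or transporters and the transcription factor Grhl3.

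Keratinocytes of the basal layer divide, leave the basement membrane and differentiate as they move outward. In the granular layer they make loricrin, involucrin and the late cornified envelope (Lce) proteins, which transglutaminases crosslink under the cell membrane into a tough envelope, while filaggrin is cut from a large precursor and packs the keratin filaments. Lipoxygenases and the transporter Abca12 supply the lipids that seal the envelope, and corneodesmosin (Cdsn) holds the dead cells together until they are shed. Many of these genes lie side by side in the epidermal differentiation complex of chromosome 3, and stem cells of the basal layer normally hold little of their RNA.

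Mice were C57BL/6 and labelled female, and from postnatal day 60 their skin received topical imiquimod, an agonist of Toll-like receptor 7 that provokes psoriasis-like inflammation, or control vanicream, for 6 days. Skin was taken at day 6, or 30 days after the treatment without a wound (day 30), or as 6 h or 12 h wounds made at 30 days, which gives 8 groups of 2 RNA-seq libraries each. Cells were sorted as integrin α6+, β1+, Sca1+ and CD34-, the surface of epidermal stem cells of the basal layer between hair follicles, so a change in the number of sorted cells of a type and a change in the RNA per cell cannot be told apart in these bulk libraries. No label says whether the libraries of a group came from separate mice or from pools, so p-values measure only the spread between libraries. Libraries held 23623968 to 76993427 counts. The sort genes Itga6 (504 to 2038 CPM), Itgb1 (207 to 1179 CPM) and Ly6a, which encodes Sca1 (179.9 to 923 CPM), were present in every library, and Cd34 lay between 0.193 and 10.4 CPM. Both day 30 libraries numbered 1 held 0 or 1 Xist reads and 7830 or 6023 Y-linked reads against the female label, whereas the other 14 libraries held at least 11484 Xist reads and at most 2 Y-linked ones.

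The promoters of 8 genes are shown as examples. Lor, Flg, Flg2, Rptn and Krtdap hold a short motif that was more frequent in the list than in all promoters. Lce1m, Lce3c and Calm5 do not hold it. These 8 were picked, so their share with the motif does not stand for the list. Each line holds the 150 bases before the start of the gene, 5′ to 3′ on the strand of the gene, from RefSeq (GRCm38.p6), and capitals mark TGANTCA, the motif bound by AP-1 factors, searched on both strands. The windows are Lor at chr3:92083143-92083292 (minus strand), Flg at chr3:93273396-93273545 (plus), Flg2 at chr3:93197123-93197272 (plus), Rptn at chr3:93393549-93393698 (plus), Krtdap at chr7:30787755-30787904 (plus), Lce1m at chr3:93019062-93019211 (minus), Lce3c at chr3:92944336-92944485 (plus) and Calm5 at chr13:3854023-3854172 (plus).
Lor: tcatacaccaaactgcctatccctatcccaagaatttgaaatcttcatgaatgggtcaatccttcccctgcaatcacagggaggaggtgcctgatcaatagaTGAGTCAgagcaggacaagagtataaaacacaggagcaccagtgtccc
Flg: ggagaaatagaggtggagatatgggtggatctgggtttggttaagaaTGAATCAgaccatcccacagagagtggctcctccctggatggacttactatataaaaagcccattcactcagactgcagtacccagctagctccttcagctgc
Flg2: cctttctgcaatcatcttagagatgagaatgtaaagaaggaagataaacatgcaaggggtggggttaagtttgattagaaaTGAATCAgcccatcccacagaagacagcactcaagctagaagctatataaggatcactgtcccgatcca
Rptn: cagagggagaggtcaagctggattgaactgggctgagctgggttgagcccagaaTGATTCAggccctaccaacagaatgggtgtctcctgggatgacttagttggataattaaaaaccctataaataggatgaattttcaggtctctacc
Krtdap: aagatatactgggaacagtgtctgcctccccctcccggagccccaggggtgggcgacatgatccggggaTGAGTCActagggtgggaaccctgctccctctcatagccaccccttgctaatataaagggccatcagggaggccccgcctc
Lce1m: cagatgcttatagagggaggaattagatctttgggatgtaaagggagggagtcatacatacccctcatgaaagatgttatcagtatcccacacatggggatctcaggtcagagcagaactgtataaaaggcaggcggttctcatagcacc
Lce3c: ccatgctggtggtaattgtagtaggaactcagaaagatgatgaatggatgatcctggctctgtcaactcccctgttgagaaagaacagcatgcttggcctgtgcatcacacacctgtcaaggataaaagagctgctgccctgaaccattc
Calm5: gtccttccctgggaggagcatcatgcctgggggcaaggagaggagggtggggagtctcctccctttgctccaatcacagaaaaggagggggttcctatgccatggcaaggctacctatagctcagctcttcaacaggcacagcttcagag
A window was found for 37 of the 40 genes and for 27025 genes in all, with none used for Kprp, Lce1f and Aloxe3. The AP-1 motif lay in 9 of 37 (24.3%: Lor, Ivl, Flg, Flg2, Rptn, Crnn, Sbsn, Dmkn and Krtdap), against 4.96% of all genes. TATAAA on the strand of the gene lay in 10 of 37 (27%) against 5.75%. CACCC, the core of the Krüppel-like factor motif, lay in 19 of 37 (51.4%) against 40.5% on either strand, and AACCGGTT, bound by Grainyhead-like factors such as Grhl3, in 0 of 37 against 0.0777%. A match describes the letters of the window and does not show that a factor binds there. The Lce1 windows were 68.7% identical at the median over pairs and the Lce3 windows 59.1%, against 45.2% between the groups. The Lce1m window was only 43.6% to 49.4% identical to the other Lce1 windows. These windows lie before the start of the gene, and the likeness of the transcripts was not measured. The sources used here do not say how reads that match several Lce genes were counted, so values of single Lce genes are uncertain.

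Many members of the list differed widely within the 2 day 30 groups. In both treatments the library numbered 2 held far more RNA of Lor, the Lce1 genes and other structural genes than the library numbered 1, though not of the Lce3 genes in imiquimod mice. Lor (ENSMUSG00000043165.7, chr3:92080271-92083142 of GRCm38.p6), the main protein of the mouse envelope, stood at 14.9 CPM in control library 1 and 467 in control library 2, and at 14.6 and 556 in the imiquimod libraries. Flg2, a relative of filaggrin, stood at 3.39 and 160 CPM in the control libraries and at 1.35 and 175 in the imiquimod ones. Lce1m stood at 5.68 and 210, then 3.22 and 178, and Kprp, a proline-rich keratinocyte protein, at 1.76 and 59.7, then 0.804 and 58.1. Cdsn stood at 9.44 and 170 CPM, then 6.31 and 178. In all 5 genes library 2 was high and library 1 low in both treatments, and the treatments overlapped.

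Of the 36 tested members, 22 were at least 4-fold higher in library 2 than in library 1 in both treatments, where 1.06% of all genes tested were, and 0 were at least 4-fold lower (0.185% of all genes). The median ratio of library 2 to library 1 over the members was 15.0 in control and 8.02 in imiquimod mice, against 1.03 and 1.04 over all genes tested. A library with 0 reads was taken at a floor of 3 reads, which makes its ratio a lower bound. Of the members, 7 Lce1 genes passed the filter on low counts only through the day 30 libraries. Among the 29 that passed it without those libraries, 15 showed the 4-fold gap. The medians above include the 7 Lce1 genes, and no median was taken without them. The gap covered 19 of 24 tested members on chromosome 3 and 3 of 12 elsewhere, namely Tgm1, Alox12b and Cdsn. Without the 7 Lce1 genes it covered 12 of 17 on chromosome 3.

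Not every member shared the gap. Smaller ratios were seen for the abundant secreted proteins, among them suprabasin (Sbsn, 316 and 1149.7 CPM in control, 333 and 758 in imiquimod) and dermokine (Dmkn, 1218 and 2951, then 1204 and 2019). The opposite order was seen for Tgm3, a transglutaminase of hair and epidermis (59.2 and 31.5 CPM in control, 78.0 and 27.9 in imiquimod), and for Tchh, trichohyalin of the hair follicle sheath (31.0 and 15.4, then 27.2 and 16.5). Together the 40 genes took 0.268% of counts in control library 1 and 0.804% in library 2, and 0.272% and 0.576% in the imiquimod libraries, while the other 12 libraries lay between 0.141% and 0.387%. The label number and the Xist and Y-linked reads split the day 30 libraries in the same way as the gap, and the 3 cannot be told apart. The summed level of the 15 basal markers was 77468 CPM in control library 1 and 47634 in library 2, and 71868 and 59039 in the imiquimod libraries. Krt10, the keratin of the suprabasal layers, ran the other way at 7978 and 16648 CPM in control and 7691 and 8903 in imiquimod mice. Their part in the gap was not tested.

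**Figure D1:**
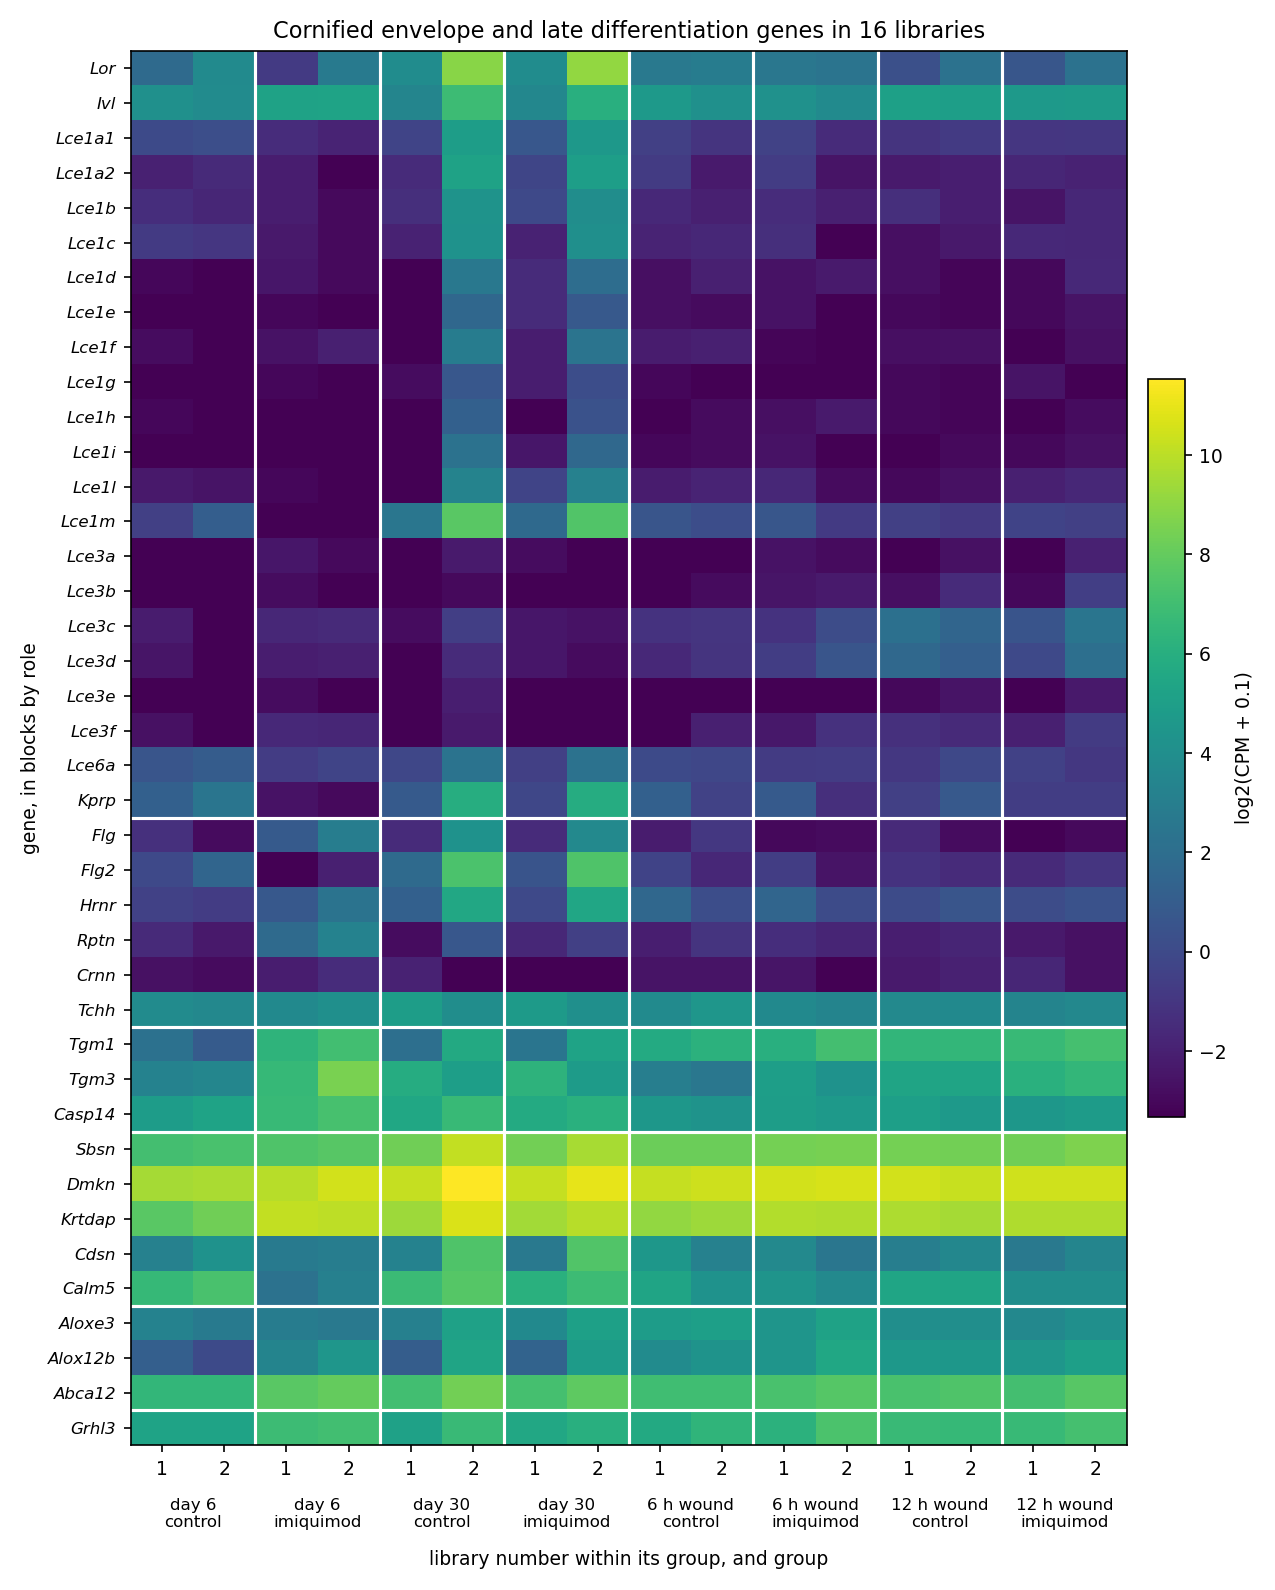
Level of each of the 40 genes (rows, in blocks by role) in each of the 16 libraries (columns, 2 per group), as log2(CPM + 0.1) in colour. Lor, Flg2, Kprp, Cdsn and the Lce1 genes are bright in library 2 of both day 30 groups, Tgm1, Tgm3 and Rptn in the day 6 imiquimod libraries, and Lce3c and Lce3d at 12 h.

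**Figure D2:**
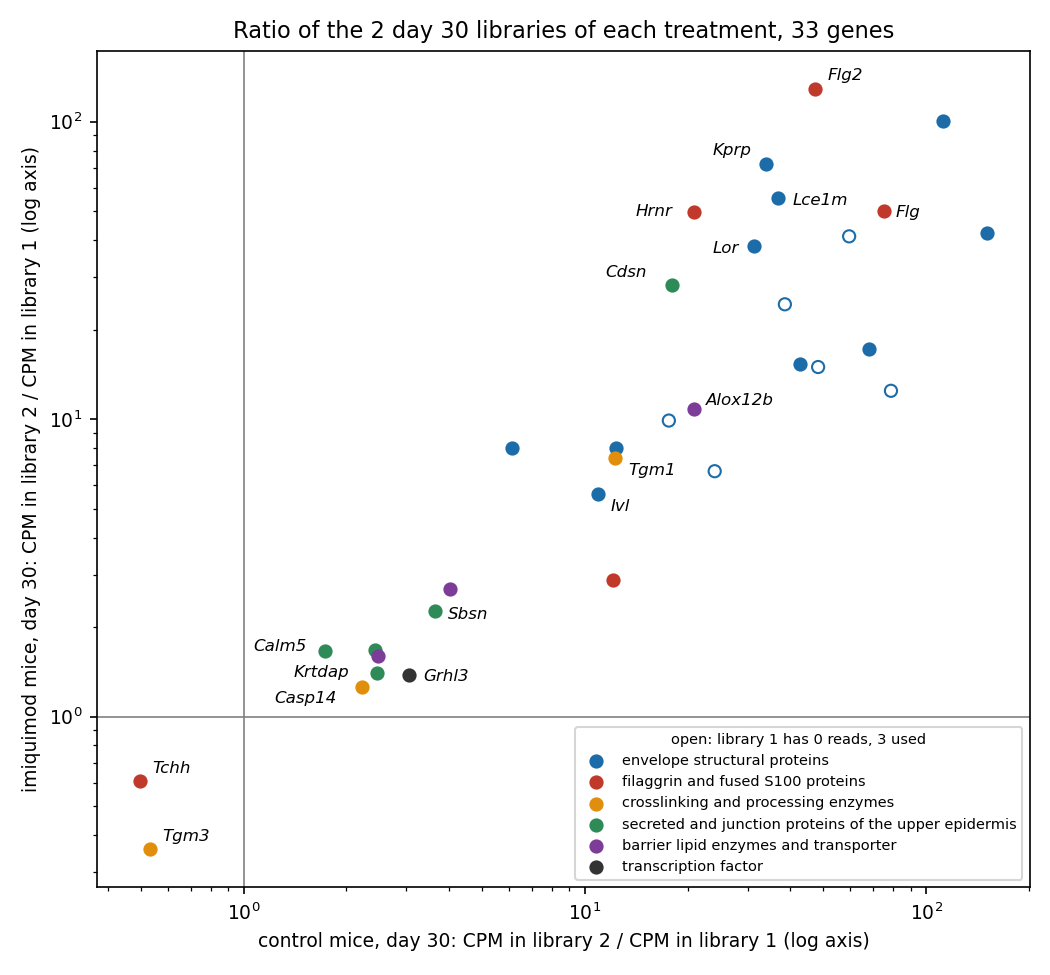
Ratio of CPM in library 2 to CPM in library 1 at day 30, control mice on the x axis and imiquimod mice on the y axis (both log axes), for 33 tested genes coloured by role. Open points are lower bounds because library 1 has 0 reads, and 3 genes at or under 3 reads in both libraries of a treatment are left out. Lor lies at 31.3 and 38.1, and Tgm3 and Tchh lie below 1 in both treatments.

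At day 6 the crosslinking and processing enzymes and Grhl3 were higher after imiquimod, Calm5 was lower, and the structural genes did not pass. With all 16 libraries in the fit, 8 of the 36 tested members passed the threshold (edgeR adjusted p under 0.05), 7 of them higher and 1 lower, where 36.6% of all genes tested passed (21.6% higher and 15% lower). The members' share was below that of all genes in this fit and above it in the fits without the day 30 libraries and with the replicate block given further on. The median log2 change of the members was 1.19, against 0.10 over all genes. All 3 crosslinking and processing enzymes rose, as did 1 of 5 tested filaggrin and fused S100 genes, 1 of 3 lipid genes and Grhl3. Of the 5 secreted or junction proteins 1 rose and 1 fell, and of the 19 tested structural proteins 0 passed. These 19 include the 7 Lce1 genes that passed the filter only through the day 30 libraries. They held at most 5 reads in any day 6 library, so they could hardly pass here. Without them 7 of 29 members were higher and 1 lower, and 0 of 12 structural proteins passed.

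Tgm1 (ENSMUSG00000022218.15, chr14:55700009-55713921 of GRCm38.p6), the transglutaminase of the granular layer that crosslinks the envelope, stood at 4.58 and 1.86 CPM in the control libraries and at 81.6 and 129 in the imiquimod libraries. Its log2 change was 5.22 (SE 1.26, edgeR adjusted p = 0.0103), and the groups did not overlap. Without control library 1 or control library 2 at day 6 Tgm1 no longer passed (edgeR adjusted p = 0.0554 and 0.0907). Tgm3 stood at 9.41 and 11.2 CPM in control and at 99.1 and 369 after imiquimod, a log2 change of 4.77 (SE 0.75, edgeR adjusted p = 0.00094), with both imiquimod libraries above both controls. Casp14 (ENSMUSG00000005355.8, chr10:78711995-78718347), the caspase that processes filaggrin, stood at 29.6 and 39.6 CPM and at 102 and 146, a log2 change of 2.08 (SE 0.32, edgeR adjusted p = 0.00046).

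Rptn, repetin of the fused S100 family, was nearly absent in control libraries (0.242 and 0.103 CPM) and stood at 3.42 and 9.68 after imiquimod, a log2 change of 5.39 (SE 1.08, edgeR adjusted p = 0.00228). Krtdap, a small secreted protein of differentiating keratinocytes, stood at 209 and 313 CPM in control and at 1132 and 1059 after imiquimod, a log2 change of 2.28 (SE 0.33, edgeR adjusted p = 0.00021). Abca12, the lipid transporter of lamellar granules, stood at 90.4 and 92.7 CPM and at 209 and 260, a log2 change of 1.58 (SE 0.36, edgeR adjusted p = 0.005). Grhl3, a transcription factor needed to form the skin barrier, stood at 39.1 and 39.7 CPM and at 117 and 130, a log2 change of 1.87 (SE 0.50, edgeR adjusted p = 0.0143). In these 4 genes every imiquimod library lay above both control libraries. The Grhl3 call was lost without day 6 control library 1 or 2 or imiquimod library 2 (edgeR adjusted p = 0.0876, 0.0858 and 0.0749).

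Calm5 (ENSMUSG00000099269.2, chr13:3854173-3854761), a calmodulin-like protein of the epidermis, was the member that fell. It stood at 97.3 and 153 CPM in control and at 4.84 and 8.91 after imiquimod, a log2 change of -3.96 (SE 0.47, edgeR adjusted p = 0.000143). It was low in both imiquimod libraries and high in both controls, and its call held in each of the 12 alternatives run.

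The other members were judged against a spread that the day 30 libraries widen, since 1 fit shares its spread over all groups. The median biological coefficient of variation was 81.3% over the tested members and 21.0% over all genes. A fit with no day 30 library, chosen after the data were seen, tested 30 members and called 19, with 13 higher and 6 lower (39% of all genes tested passed, 19.8% higher and 19.3% lower). The replicate number as a block gave 22 of 36, with 13 higher and 9 lower (48.9% of all genes). DESeq2 gave 13 of 38 tested members (35% of all genes), and the 4 day 6 libraries alone gave 17 of 24 (29.3%). The structural genes called in addition went in opposite directions.

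Involucrin (Ivl), an early scaffold of the envelope, stood at 17.5 and 14.2 CPM in control and 38.2 and 38.5 after imiquimod (log2 change 1.37, SE 0.19, edgeR adjusted p = 0.00031 without day 30 libraries, and 1.49, adjusted p = 0.239, with them). Flg, filaggrin itself, stood at 0.323 and 0.0344 CPM and at 1.77 and 7.61 (log2 change 4.67, SE 1.06, edgeR adjusted p = 0.00607 without day 30 libraries, and 4.78, adjusted p = 0.0981, with them). Hrnr, hornerin, stood at 0.626 and 0.516 CPM and at 1.58 and 4.97, and Alox12b, a lipoxygenase of the barrier, at 2.12 and 0.929 and at 10.5 and 22.0. In these 4 genes both imiquimod libraries were above both controls.

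The lower genes were Flg2, Kprp and Lce genes. Flg2 stood at 0.868 and 2.82 CPM in control and at 0 and 0.148 after imiquimod (log2 change -4.65, SE 1.18, edgeR adjusted p = 0.0105 without day 30 libraries). Kprp stood at 2.26 and 5.37 CPM and at 0.0626 and 0.0296 (log2 change -6.13, SE 1.11, edgeR adjusted p = 0.00176 in the same fit). Lce1m had 0.606 and 2.10 CPM in control and 0 reads in both imiquimod libraries, which makes it at least 17.9-fold lower against a floor of 3 reads per library. Lce1a1 (0.908 and 1.07 CPM, then 0.271 and 0.178) and Lce6a (1.41 and 1.93, then 0.521 and 0.74) also passed in that fit, at log2 changes of -2.01 and -1.30. Lor did not pass in either fit, with 3.47 and 13.8 CPM in control and 0.48 and 6.57 after imiquimod. Counted by levels alone, 18 of 36 members were higher in both imiquimod libraries than in both controls and 11 were lower, where 29.9% and 37.8% of all genes tested were. The 18 include Lce1d and Lce1f and the 11 include Lce1l. These 3 genes passed the filter only through the day 30 libraries and held at most 5 reads in any day 6 library.

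Markers of other cells moved with the imiquimod effect at day 6. Of 12 macrophage and monocyte markers 9 were higher and 0 lower, with a summed level of 133 and 92.5 CPM in control and 268 and 448 after imiquimod. Adgre1, which marks macrophages, stood at 1.13 and 0.241 CPM and at 9.49 and 11.7. Of 12 tested markers of the infundibulum and sebaceous gland 4 were higher, with sums of 836 and 470.0 against 8177 and 3181 CPM, most of it Krt17, which stressed epidermis also makes. Of 15 basal markers 1 was higher and 7 lower, Krt15 with the smallest p (log2 change -4.18, edgeR adjusted p = 3.6e-05). Mitochondrial genes took 7.65% of counts in imiquimod library 1 and 1.80% in library 2, against 3.31% and 1.43% in control. Their part in the members' differences was not tested.

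**Figure D3:**
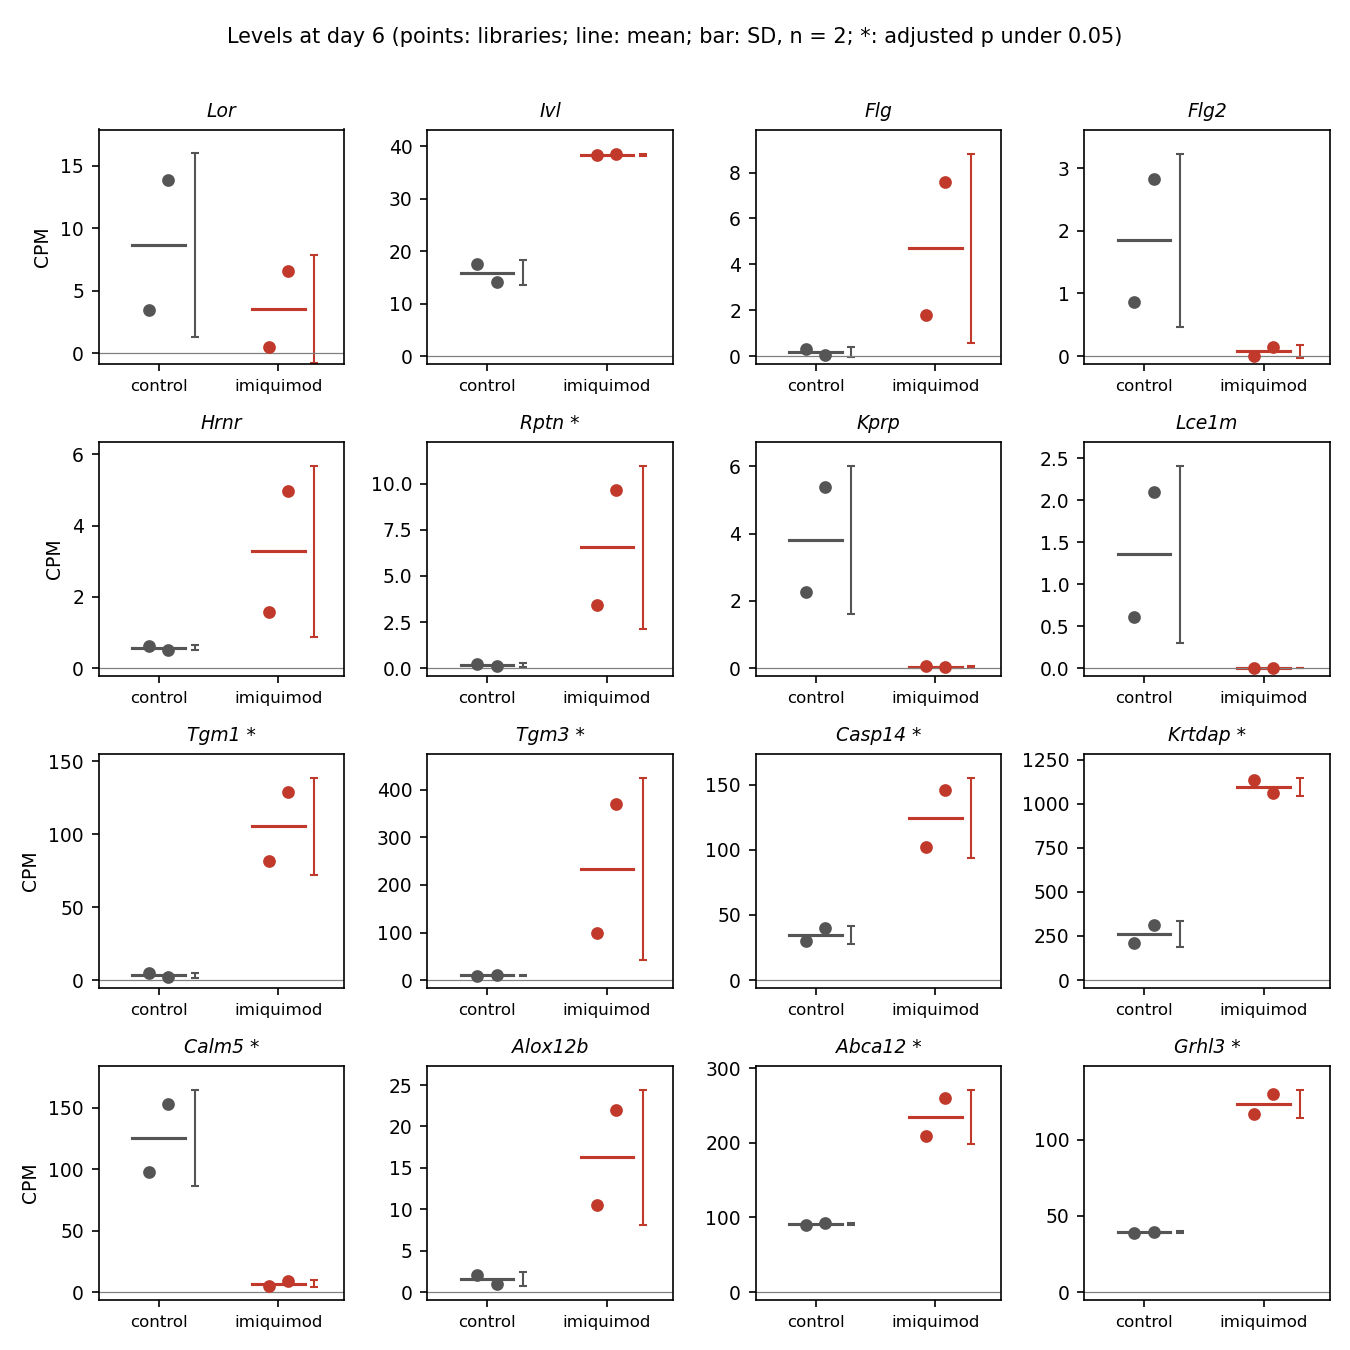
Level in CPM (y axis, a scale per gene) of 16 members at day 6 in control and imiquimod mice. Points are libraries, lines are means, bars beside them are the SD (n = 2), and a star marks an edgeR adjusted p under 0.05 with all 16 libraries in the fit. Tgm1 rises from 4.58 and 1.86 to 81.6 and 129 CPM, Calm5 falls from 97.3 and 153 to 4.84 and 8.91, and Lor overlaps.

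Around the list, 4 sets of genes of the same pathway were counted at day 6. Of 23 tested other envelope components 8 were higher and 6 lower. The keratins of the differentiated layers split, with Krt1 higher (log2 change 1.91) and Krt2, Krt77 and Krt80 lower (-6.35, -4.14 and -3.07). Of 22 tested proteases and inhibitors of desquamation 8 were higher and 0 lower, with kallikrein Klk13 at 6.61, Klk10 at 2.64, the bleomycin hydrolase Blmh, which breaks down filaggrin, at 2.49 and cathepsin D (Ctsd) at 1.83. Of 29 tested genes of barrier lipid synthesis 15 were higher and 1 lower, led by the ceramide enzymes Degs1 (2.71) and Sptlc2 (1.56), the sulfotransferase Sult2b1 (2.68) and the lipase cofactor Abhd5 (1.04). Of 35 regulators of differentiation 10 were higher and 10 lower, among them Ehf (3.64) and Ppard (1.95) higher and Satb1 (-3.65) and Ahr (-1.20) lower. All these values are log2 changes with an edgeR adjusted p under 0.05, and the share of all genes that passed was 36.6%.

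At day 30, 30 days after the cream, no member passed the test between imiquimod and control mice. Of 36 tested members 0 passed, 0 had an unadjusted p under 0.05 in edgeR, and DESeq2 called 0, where 0.0116% of all genes passed (0.00578% higher and 0.00578% lower). The levels of 0 members were separated between the treatments, against 17.8% (higher) and 8.49% (lower) of all genes tested. Calm5, at 113 and 196 CPM in control and 68.4 and 114 after imiquimod, had the log2 change -0.84 (SE 0.42, edgeR adjusted p = 1). The gap between libraries within each treatment limits what this comparison can show: the SE of Lor was 1.71 on the log2 scale. The difference of the imiquimod effect between day 6 and day 30 was itself tested and 8 members passed, 7 higher and 1 lower. Of all genes 22.5% passed, 13.7% higher and 8.82% lower. The 8 members were Rptn, Tgm1, Tgm3, Krtdap, Casp14, Grhl3 and Abca12, with larger effects at day 6, and Calm5, with a more negative one. With the replicate block 18 passed, a count not set here against the share of all genes in that fit.

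After a wound more members were lower than higher against unwounded skin. With both day 30 libraries, 12 of 36 tested members passed at 6 h in control mice (0 higher, 12 lower) and 16 at 12 h (2 higher, 14 lower), where 34.7% and 30.8% of all genes passed (18% and 16.5% higher, 16.7% and 14.3% lower). In imiquimod mice 12 passed at 6 h (1 higher, 11 lower) and 15 at 12 h (3 higher, 12 lower), where 38.7% and 37.6% passed (20.1% and 20.3% higher, 18.6% and 17.3% lower). Of the 19 tested structural genes 6 and 10 were lower at 6 h and 12 h in control mice and 7 and 7 in imiquimod mice, nearly all of them Lce1 genes, and 0, 2, 1 and 3 were higher, all of the Lce3 group. Without the 7 Lce1 genes that passed the filter only through the day 30 libraries, which had to be lower in wounds, 3, 5, 4 and 6 of 12 structural genes and 9, 9, 8 and 11 of 29 members were lower. By levels, 12 and 13 members lay below both unwounded libraries in control mice at 6 h and 12 h (25.2% and 23.6% of all genes did) and 17 and 18 in imiquimod mice (33.2% and 31.4%), while 1, 4, 5 and 5 lay above (39.3%, 44.6%, 36.1% and 38.7%). Those below include some of the same 7 genes, at both times. They are Lce1g in control mice and Lce1d, Lce1e, Lce1f, Lce1g, Lce1i and Lce1l in imiquimod mice.

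For many members the call depended on which unwounded library entered. Both day 30 libraries numbered 1 held Y-linked reads and almost no Xist reads, unlike every wounded library. In any comparison with library 1 alone, the wound and this difference cannot be told apart. Against library 2 alone the counts in the same order were 28, 28, 24 and 27, of which 28, 28, 23 and 25 were lower (backgrounds 27.6%, 24.2%, 32.9% and 31.1%). Against library 1 alone they were 9, 10, 6 and 11, of which 5, 5, 4 and 6 were lower (backgrounds 26.7%, 24.5%, 28.1% and 26.7%). These fits, chosen after the data were seen, leave 1 day 30 library per treatment, which is assumed to vary like the other groups. Every count against library 2 includes the 7 Lce1 genes that passed the filter only through the day 30 libraries. Those genes had to be lower in wounds. No count without them was taken for these fits. The backgrounds in brackets are for both directions together, so the counts of lower members cannot be set against them. The replicate block gave 27, 28, 27 and 28 calls (backgrounds 46%, 42.6%, 49.8% and 48.4%), and since it takes the gap between numbers out of the error, its p-values for wounds do not count the gap between the day 30 libraries. Leaving out a single library also moved the counts: in control mice at 6 h to 24 and 4 (without day 30 library 1 and 2) and to 2 and 2 (without 6 h library 1 and 2), at 12 h to 25, 6, 3 and 3, and in imiquimod mice to 19, 2, 4 and 1 at 6 h and to 21, 5, 5 and 4 at 12 h, in the same order. The share of all genes that passed in these fits was 17.2% to 26.6%, 15.3% to 22.9%, 21.1% to 29.3% and 22.2% to 27.7%.

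Calm5 and Casp14 were lower in wounds in all 4 comparisons, against either day 30 library. Calm5 stood at 113 and 196 CPM in unwounded control skin, at 40.7 and 19.2 at 6 h and at 42.3 and 40.9 at 12 h. In imiquimod mice it stood at 68.4 and 114, then 20.6 and 12.5, then 15.5 and 15.2. Every wounded library lay below every unwounded one of its treatment. The log2 change was -2.51 at 6 h (SE 0.44, edgeR adjusted p = 0.00156) and -2.08 at 12 h (SE 0.43, adjusted p = 0.00475) in control mice, and -2.48 (SE 0.44, adjusted p = 0.00135) and -2.62 (SE 0.44, adjusted p = 0.00108) in imiquimod mice, and held in each of the 12 alternatives run per comparison. Casp14 stood at 46.1 and 102 CPM in unwounded control skin and at 20.0 to 33.9 in the 4 wounded control libraries, with log2 changes of -1.91 at 6 h and -1.49 at 12 h (edgeR adjusted p = 0.00094 and 0.00437). In imiquimod mice Casp14 stood at 53.9 and 67.9 CPM and at 23.5 to 31.0 in wounds, with -1.14 and -1.27 (edgeR adjusted p = 0.0133 and 0.00814). The Casp14 call was lost at 12 h in control mice without 12 h library 2 (highest adjusted p 0.0546), and in imiquimod mice without day 30 library 2 or 6 h library 2 at 6 h (0.0949) and without day 30 library 2 or 12 h library 1 at 12 h (0.0729).

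Among the structural genes, Lce1m was lower against both day 30 libraries in control mice at 6 h and 12 h and in imiquimod mice at 12 h. It stood at 5.68 and 210 CPM unwounded and 1.41 and 1.05 at 6 h, then 0.596 and 0.454 at 12 h, in control mice, and in imiquimod mice at 3.22 and 178, then 1.44 and 0.485, then 0.688 and 0.594. All wounded libraries were below both unwounded ones. With both day 30 libraries these Lce1m calls were lost without day 30 library 2 or either wounded library of the comparison. For Lor the wounded libraries (1.11 to 7.34 CPM) were below both unwounded control libraries (14.9 and 467) and both imiquimod ones (14.6 and 556). Its log2 change at 12 h in control mice was -2.53 (SE 1.31, edgeR adjusted p = 0.194) against library 1 and -7.42 (SE 1.33, adjusted p = 0.00481) against library 2. Lce1a1 was lower against either library in imiquimod mice, at 1.57 and 23.9 CPM unwounded and 0.261 to 0.675 in wounds.

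Involucrin was called in opposite directions. Ivl stood at 10.7 and 118 CPM in unwounded control skin and at 25.4 and 17.3 at 6 h and 34.9 and 32.4 at 12 h, so that wounds lay between the 2 unwounded libraries. At 12 h in control mice its log2 change was 1.42 (SE 0.25, edgeR adjusted p = 0.00241) against library 1 and -1.99 (SE 0.21, adjusted p = 0.00017) against library 2. The same reversal was called at 6 h in control mice (0.83 and -2.59) and at 12 h in imiquimod mice (1.05 and -1.37).

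Among the enzymes and lipid genes, Tgm1 and Alox12b passed as higher in wounds against day 30 library 1 and not against library 2, and Tgm3 was lower at 6 h in control mice. Tgm1 stood at 4.26 and 52.4 CPM in unwounded control skin and at 53.8, 75.4, 87.9 and 91.7 in control wounds, and at 5.38 and 39.7 CPM and 65.1, 135, 105 and 140 in imiquimod mice. All 8 wounded libraries lay above the unwounded libraries of their treatment. The change passed only against library 1 (log2 3.76 and 4.17 at 6 h and 12 h in control mice, 4.14 and 4.39 in imiquimod mice, edgeR adjusted p = 0.0065, 0.00498, 0.0042 and 0.00353), and against library 2 it was 0.18, 0.59, 1.32 and 1.58 (adjusted p = 0.843, 0.5, 0.121 and 0.0759). For Alox12b the log2 changes against library 1 were 2.94, 3.35, 3.61 and 3.32 in the same order of comparisons. Against library 2 they were -1.40, -0.99, 0.24 and -0.05. Unlike Tgm1, Alox12b in control wounds (14.0 to 23.6 CPM) lay between the unwounded control libraries (1.96 and 40.9). In imiquimod mice its wounded libraries (21.5 to 45.4 CPM) lay above unwounded library 1 (2.58) and on both sides of library 2 (27.9). Tgm3 fell in control mice at 6 h, from 59.2 and 31.5 CPM to 7.91 and 5.79 (log2 change -2.87, SE 0.70, edgeR adjusted p = 0.0108), also against either day 30 library in fits with 1 day 30 library per treatment, and stood at 41.1 and 40.9 CPM at 12 h. The Tgm3 call was lost without day 30 control library 1 or either 6 h control library (edgeR adjusted p up to 0.103). Tchh passed as lower against library 1 in all 4 comparisons (log2 -0.96, -1.50, -1.31 and -1.40) and in none against library 2. With both libraries it passed at 12 h (log2 -1.06 in control and -1.03 in imiquimod mice, edgeR adjusted p = 0.0463 and 0.0438), calls that were lost without day 30 library 1 or either 12 h library of the treatment.

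Lce3c and Lce3d, of the Lce3 group that is known to be made in injured skin, rose at 12 h. Lce3c (ENSMUSG00000045475.5, chr3:92944486-92945730) stood at 0.0418 and 0.58 CPM in unwounded control skin, 0.351 and 0.398 at 6 h and 4.39 and 2.82 at 12 h. In imiquimod mice it stood at 0.0847 and 0.0679, then 0.351 and 1.01, then 1.35 and 5.32. The 12 h libraries were above all unwounded ones. Its log2 change at 12 h was 3.24 (SE 0.92, edgeR adjusted p = 0.0188) in control mice and 5.38 (SE 1.13, adjusted p = 0.00293) in imiquimod mice. Lce3d moved alongside, at 4.06 (SE 1.02, edgeR adjusted p = 0.0101) and 5.37 (SE 1.18, adjusted p = 0.00373). In control mice both passed against library 1 alone and not against library 2 alone (edgeR adjusted p = 0.101 for Lce3c and 0.0572 for Lce3d), and both calls were lost without day 30 control library 1, that of Lce3c also without 12 h control library 1. Lce3d had also passed at 6 h in imiquimod mice (log2 change 3.99, edgeR adjusted p = 0.021), from 0.0847 and 0.034 to 0.558 and 1.42 CPM. This 6 h call was lost in 4 of 12 alternatives. The neighbours Lce3a, Lce3b and Lce3e in the same block of chromosome 3 were at most 0.58 CPM in any library and were not tested. Lce3b stood at 0 and 0.0276 CPM in unwounded control skin and at 0.0541 and 0.255 at 12 h. In imiquimod mice it had 0 reads in both unwounded libraries and 0.0246 and 0.58 CPM at 12 h, from 1 and 41 reads. Lce3f passed at 12 h in imiquimod mice, with 0 reads in both unwounded libraries and 0.148 and 0.509 CPM in wounds, at least 2.87-fold higher against the floor of 3 reads per library, and this call was lost in 5 of 10 alternatives, among them the fits against either day 30 library alone and without 12 h library 2.

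**Figure D4:**
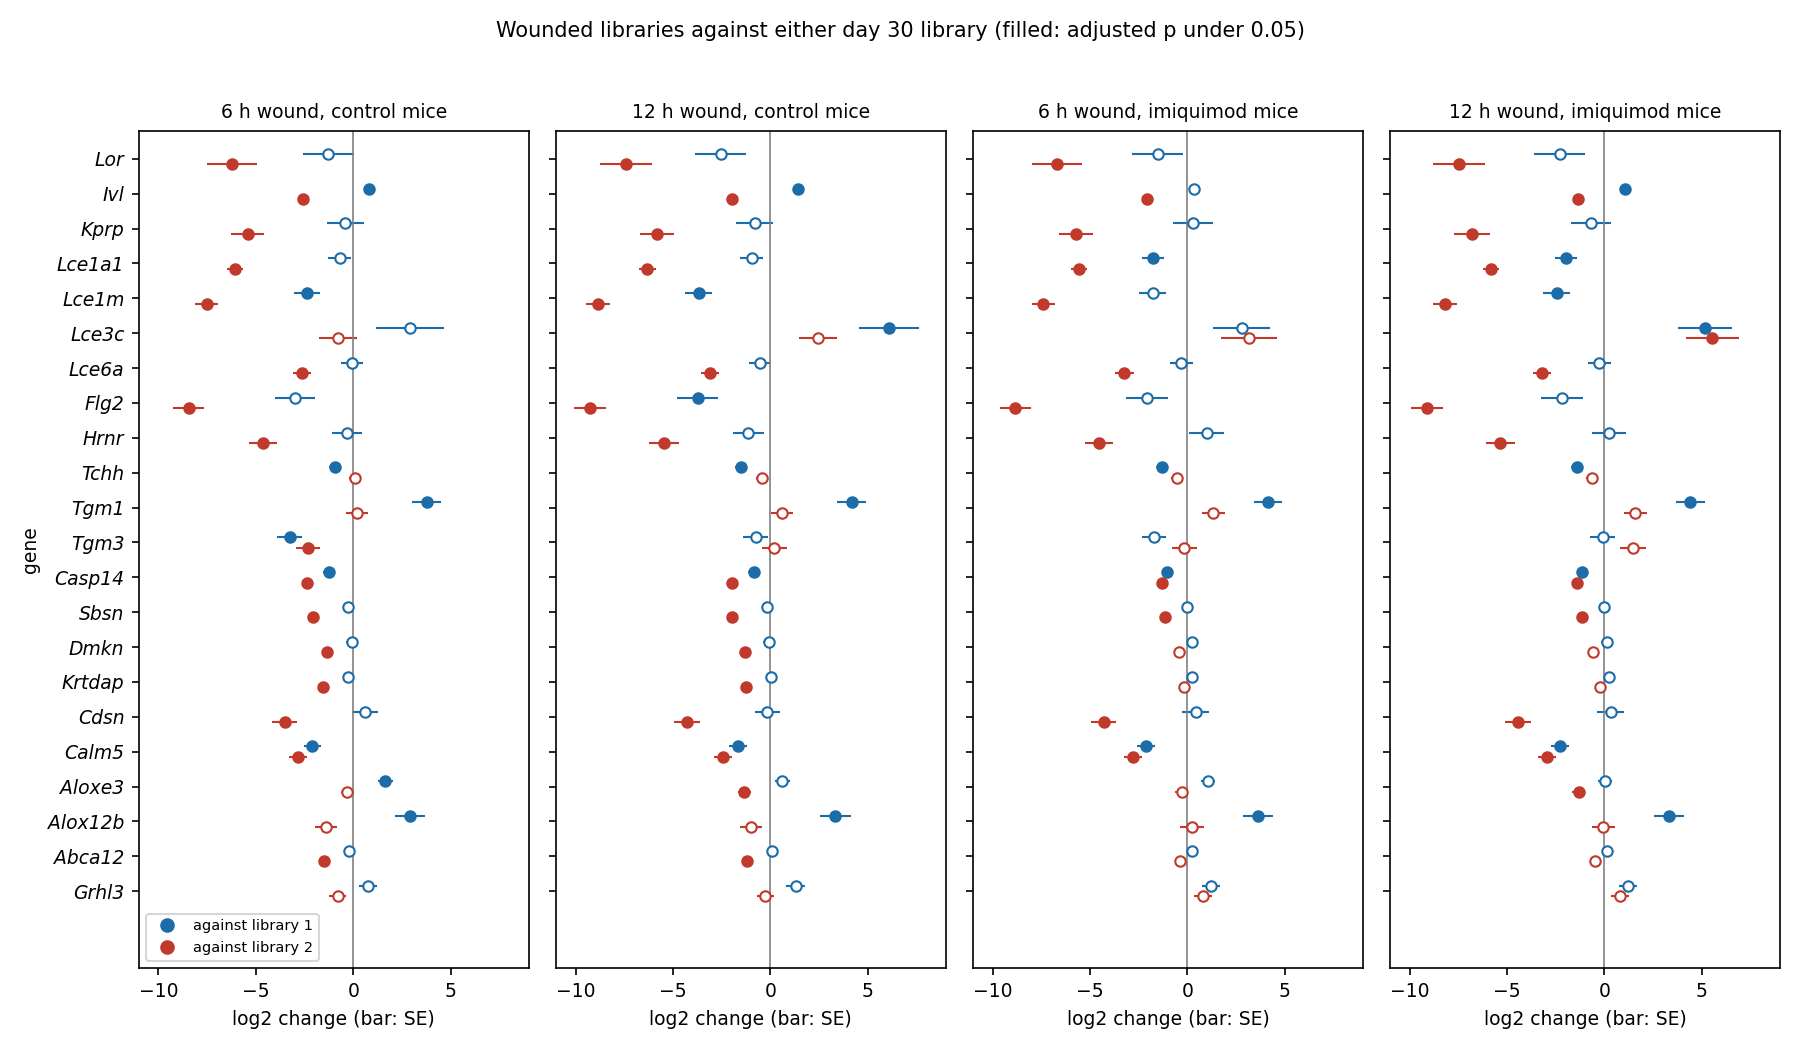
Log2 change in wounds (x axis, bars are the SE) of 22 members (y axis) against the day 30 library numbered 1 (blue) or 2 (red), in 4 panels for 6 h and 12 h wounds of control and imiquimod mice, with filled points where the edgeR adjusted p is under 0.05. Calm5 and Casp14 lie left of 0 in both colours, Ivl lies right of 0 in blue and left in red, and Tgm1 is filled in blue only.

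**Figure D5:**
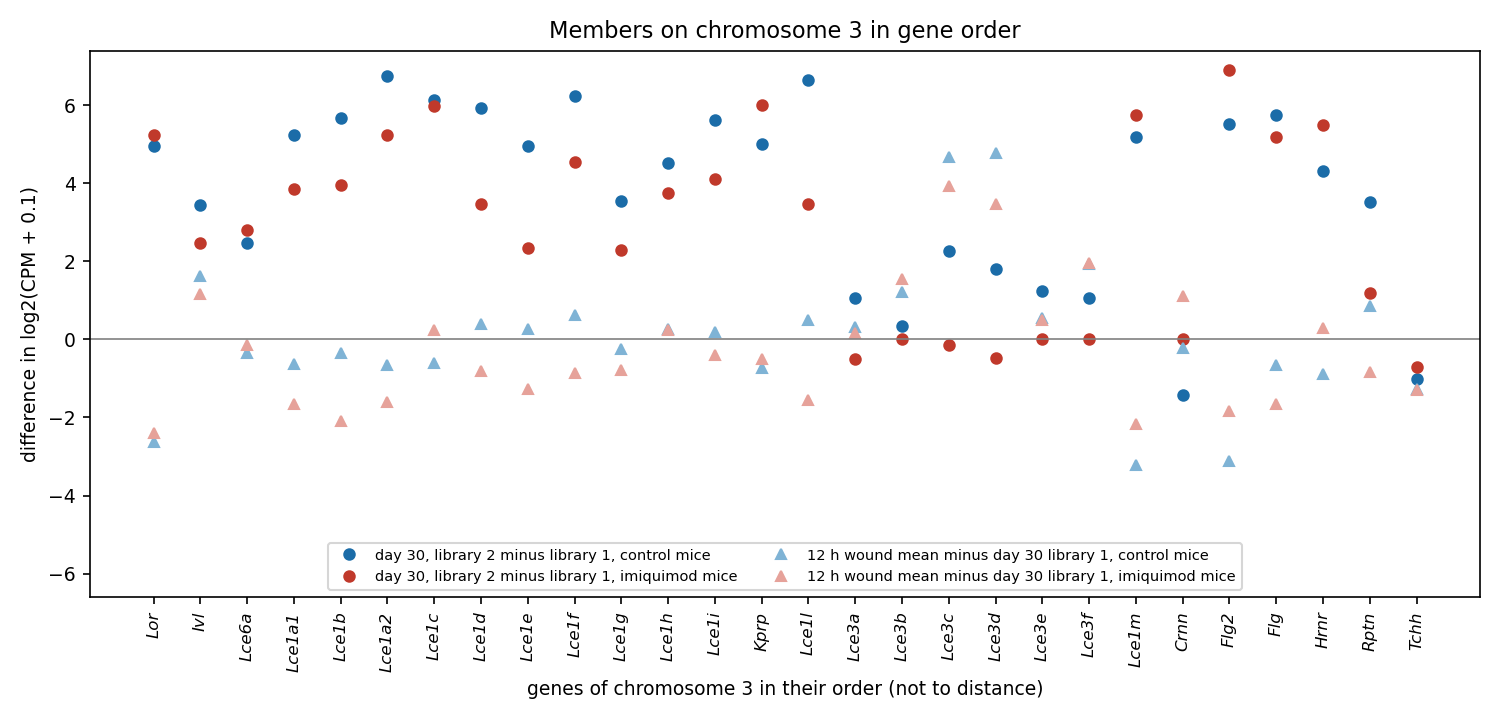
The 28 members on chromosome 3 in gene order (x axis, not to distance), with the difference in log2(CPM + 0.1) on the y axis. Circles are day 30 library 2 minus library 1 and triangles are the mean of 12 h wounds minus day 30 library 1, in blue for control and red for imiquimod mice. Circles stand high from Lor to Lce1l and at Lce1m, Flg2, Flg and Hrnr, not at Crnn, and triangles stand highest at Lce3c and Lce3d between them.

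The 28 members on chromosome 3 run over 1368.81 kb from Lor to Tchh, and the plot in gene order shows where they lay. The 12 Lce1 genes, Kprp, Flg2, Flg and Hrnr shared the gap between day 30 libraries. The 6 Lce3 genes between Lce1l and Lce1m were at most 0.58 CPM in any day 30 library. Tchh, at the far end, was lower in library 2.

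Markers of other cells differed between wounded and unwounded skin. The summed level of 8 neutrophil markers was 0.306 to 2.12 CPM in unwounded day 30 libraries and 73.4 to 174 in wounds, nearly all of it Cxcr2, while Ly6g, Mpo, Elane and Ngp were at most 0.127 CPM in these libraries. The sum of the infundibulum and sebaceous list was 692 to 1692 CPM unwounded and 2186 to 4664 in wounds, most of it Krt17. Macrophage markers rose in 6 of 12 at 6 h in control mice, yet Adgre1 was at most 0.228 CPM in wounds. Their part in the members' differences was not tested.

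Other genes of the pathway were counted at 12 h against both day 30 libraries, where 16.5% of all genes were higher and 14.3% lower in control mice and 20.3% and 17.3% in imiquimod mice. At 12 h in control mice 1 of 23 other envelope components was higher and 11 lower, among them Krt10 (log2 change -2.38), Krt80 (-1.62), the transglutaminase Tgm5 (-1.70) and Anxa1 (-1.12). In imiquimod mice 1 was higher, Sprr1b (4.68), and 6 lower. Of 29 barrier lipid genes 4 rose and 4 fell at 12 h in control mice, with the desaturase Degs2 at 3.34 and the ceramidase Acer1 at -2.02, and 9 rose and 5 fell in imiquimod mice. Of 35 regulators 4 rose and 10 fell in control mice, with the Notch target Hes1 at -3.53, Klf4, which drives barrier formation, at -1.95, Hopx at -1.16 and Ppard at 2.45. Of 22 desquamation genes 1 rose and 2 fell in control mice, with Klk13 at 2.23 and the protease inhibitor Spink5 at -2.59. Each named gene had an edgeR adjusted p under 0.05. Spink5 was also at least 4-fold higher in day 30 library 2 than in library 1 in both treatments, at 77.9 and 327 CPM in the control and 62.9 and 269 in the imiquimod libraries.

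No member passed the test between wounds of imiquimod and control mice. At 6 h and at 12 h 0 of 36 passed (1 and 1 at an unadjusted p under 0.05 in edgeR, 0 and 0 in DESeq2), where 0.0347% (0.0231% higher and 0.0116% lower) and 0% of all genes passed. Tgm3 came nearest at 6 h, with 31.5 and 18.9 CPM in imiquimod against 7.91 and 5.79 in control wounds (log2 change 1.91, SE 0.68, edgeR adjusted p = 0.647), and the groups did not overlap. At 12 h it stood at 69.6 and 89.5 against 41.1 and 40.9 CPM (log2 change 1.02, SE 0.64, edgeR adjusted p = 1). Calm5 at 12 h stood at 15.5 and 15.2 CPM against 42.3 and 40.9 in control wounds, again with no overlap (log2 change -1.38, SE 0.43, edgeR adjusted p = 1), and it passed with the replicate block (adjusted p = 0.0087) and in a fit of the compared libraries alone (adjusted p = 0.0182). By levels, 9 members were higher and 5 lower without overlap at 6 h, and 6 and 6 at 12 h, where 16.6% and 18.6%, then 13% and 28.3%, of all genes tested were. They include Lce1h (higher) and Lce1f (lower) at 6 h and Lce1l (higher) at 12 h. These genes passed the filter only through the day 30 libraries and held few reads in wounds. The difference of the wound effect between imiquimod and control mice passed for 0 members at 6 h and 0 at 12 h (1 and 0 at an unadjusted p under 0.05 in edgeR, 0 and 0 in DESeq2), where 0% of all genes passed at both times. Lce3c had the wide value 2.14 at 12 h (SE 1.49, edgeR adjusted p = 1.00).

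Between 6 h and 12 h no member passed in either treatment with edgeR (3 in control and 2 in imiquimod mice at an unadjusted p under 0.05), where 0.647% (0.486% higher and 0.162% lower) and 0.173% (0.15% higher and 0.0231% lower) of all genes did. By levels 13 members were higher and 8 lower without overlap in control mice (31.6% and 21.6% of all genes were), and 3 and 5 in imiquimod mice (24.9% and 20.9%). The 8 include Lce1e, Lce1f and Lce1l and the 5 include Lce1h. These genes passed the filter only through the day 30 libraries and held few reads in wounds. In control wounds Tgm3 went from 7.91 and 5.79 to 41.1 and 40.9 CPM (log2 2.53, SE 0.69, edgeR adjusted p = 0.142), Lce3c had a log2 change of 3.21 (SE 0.90, adjusted p = 0.133) and Lce3d of 3.17 (SE 0.93, adjusted p = 0.144), each without overlap. DESeq2 called these 3 genes (adjusted p = 0.00592, 0.011 and 0.0179) and 0 in imiquimod wounds, where 5.14% and 2.55% of all genes passed. The replicate block called 4 in control wounds, Tgm3 and Calm5 higher and Lor and Aloxe3 lower, and 1 in imiquimod wounds, Aloxe3 lower, where 7.49% and 3.67% of all genes passed.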

How the data were processed

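The series holds 28 samples, of which the 16 RNA-seq libraries were used and the 12 ATAC-seq samples were not analysed here. Per the labels' protocols, sorted cells went into Trizol, and the TruSeq RNA kit used for the libraries keeps no strand information. STAR and the mm10 build are named in the submitters' processing notes. The deposited files hold raw counts of reads per gene, made by the authors without normalization. The aligner's version, the annotation release and the strand column were not given in the sources used here. Symbols were found for 47224 of 47729 IDs, and IDs without one held 0.0365% to 0.0887% of a library's counts.

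Counts were tested with edgeR 4.0.16 in R 4.3.3 (quasi-likelihood F test, TMM, filterByExpr, robust) in 1 fit of 8 group means over 16 libraries, with 8 residual degrees of freedom, and two-sided p-values were adjusted by Benjamini-Hochberg over the 17299 genes tested, with a threshold of 0.05. The common biological coefficient of variation was 23.0%. Exact permutation of 2 libraries against 2 cannot go below p = 0.333. The method was tested on simulated counts with planted changes at day 6 and a coefficient of variation of 23% in every gene. The median over the tested members was 81.3%, so that test does not show how the method does for them. The SE is the log2 change divided by the root of F, and depth sets counting error only. Alternatives were RLE scaling, no filter, a filter of 1 CPM in 2 libraries, DESeq2 1.42.0, the compared libraries alone, each library left out, and a replicate block. Libraries with the same number deviated together within a time point (correlations 0.217 at day 6, 0.460 at day 30, 0.540 at 6 h and 0.322 at 12 h) and not between time points (median -0.040), so the block was set within time points. The members, lists, comparisons and the naming rule (the members, and per pathway list and comparison up to 4 genes past the threshold with the smallest adjusted p) were chosen with earlier results of these data known. Promoter windows came from RefSeq.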

Additional observations from a re-analysis of the deposited data

Results flagged for a closer look

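The imiquimod effect at day 6 differed from that at day 30 in 8 members by the test of the difference itself (edgeR, adjusted over all genes tested). These are 8 of 36 tested members, and 22.5% of all genes passed the same test, so the share is near that of all genes. The same 8 passed among the 29 members left without the 7 Lce1 genes that passed the filter only through the day 30 libraries. The difference, day 6 minus day 30 on the log2 scale, was 6.41 for Rptn (SE 1.45, adjusted p = 0.00876), 5.63 for Tgm1 (SE 1.60, adjusted p = 0.0338) and 4.62 for Tgm3 (SE 0.95, adjusted p = 0.0081). For Krtdap it was 2.81 (SE 0.45, adjusted p = 0.00137), for Casp14 2.43 (SE 0.44, adjusted p = 0.00311), for Grhl3 2.25 (SE 0.70, adjusted p = 0.0414) and for Abca12 1.96 (SE 0.50, adjusted p = 0.0164). Calm5 had the negative value -3.12 (SE 0.61, adjusted p = 0.0053). Krtdap, Casp14 and Calm5 kept the call in each of 16 alternatives. Tgm3 lost it only in the fit of the compared libraries alone (adjusted p = 0.0723). Rptn lost it in that fit, without day 30 control library 2 (2.21, adjusted p = 0.525) and with day 30 libraries numbered 1 alone (3.14, adjusted p = 0.425). The calls of Tgm1, Abca12 and Grhl3 were lost in 7, 6 and 9 of 16 alternatives, with values down to 2.90, 1.16 and 1.24.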

How the results depend on the processing

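RLE scaling moved no count of members called beyond 1.5 times and shifted the median log2 change of all genes by -0.0273 to 0.0155. In the order day 6, then wounds at 6 h and 12 h in control and at 6 h and 12 h in imiquimod mice, then the difference of the day 6 and day 30 effects, the counts of 8, 12, 16, 12, 15 and 8 members became 22, 27, 28, 27, 28 and 18 with the replicate block, 21, 29, 31, 31, 33 and 21 without a filter on low counts, and 17, 3, 6, 4, 7 and 3 in fits of the compared libraries alone. Without a filter 20.9% of all genes passed at day 6 and 20.3% for the 6 h control wound, against 36.6% and 34.7% with it. DESeq2 gave 13 at day 6 and 22, 26 and 23 for the first 3 wound comparisons. The 1 CPM filter gave 21 for the 6 h control wound. With day 30 libraries numbered 2 alone, a setting chosen after seeing the data, the wound counts were 28, 28, 24 and 27 and the difference of effects 15. With those numbered 1 alone, chosen likewise, they were 10 at 12 h in control and 6 at 6 h in imiquimod mice, and 19 at day 6, as with no day 30 library in the fit (19). Without a filter, counts that were 0 became 2 for imiquimod against control at day 30, 7 at 6 h and 2 at 12 h. Of all genes 0.49%, 1.43% and 0.591% passed in these 3 comparisons. Counts of 0 also became 8 and 5 for 12 h against 6 h in control and imiquimod mice, and 5 for the difference of the wound effect at 6 h. The replicate block gave 1 for imiquimod against control at 12 h, and 4 and 1 for 12 h against 6 h; the compared libraries alone gave 1, 4 and 1 and DESeq2 3 for 12 h against 6 h in control mice. The block changed no other count beyond 1.5 times. Leaving out a library in turn gave 6 to 9 at day 6, 2 to 24 and 3 to 25 for the control wounds, 1 to 19 and 4 to 21 for the imiquimod wounds, 5 to 12 for the difference of effects (5 without day 6 control library 1 or 2, day 6 imiquimod library 2 or day 30 imiquimod library 1) and 0 elsewhere. Of single-member values 8 reversed, all Lce1 genes in control wounds that lack reads in day 30 library 1: from -6.04 without day 30 control library 1 to 4.10 without library 2 for Lce1e and from -6.16 to 5.70 for Lce1l at 6 h, and likewise at 12 h from -7.72 to 3.44 for Lce1d, -7.26 to 2.89 for Lce1e, -7.15 to 4.30 for Lce1f and -7.83 to 4.02 for Lce1l, and with day 30 libraries numbered 1 alone, 5.75 and 4.04 for Lce1l at 6 h and 12 h. None of the positive values passed. The cause of the other changes was not tested, apart from the fewer libraries or genes that a setting has by construction. A count without a share of all genes beside it does not show whether the members moved apart from all genes. The wound counts with day 30 libraries numbered 2 alone include the 7 Lce1 genes that passed the filter only through the day 30 libraries. Levels near 0 rest on few reads, so changes of the Lce genes are the least certain.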
